A study of Mus musculus with 2 samples.

Results

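Expression of 10 genes of the WNT pathway was followed through the cells of the mouse incisor. The genes were 5 secreted ligands (Wnt4, Wnt5a, Wnt6, Wnt10a and Wnt10b) and 5 genes that respond to the pathway or act in it (Axin2, Lef1, Lgr6, Nkd1 and Nkd2). They were chosen by name and are 10 of the 31053 genes in the deposited matrix, in which each of the 10 has a single row. A barcode was used when it held 500 or more genes and no more than 20% mitochondrial transcripts. Of 4775 such barcodes, 4502 were kept as cells after removal of likely doublets and of cells with carried-over haemoglobin.

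The cells came from lower incisors of C57BL/6 mice aged 4 weeks that had received no treatment. The tissue was digested with collagenase and profiled with droplet-based 3′ single-cell RNA sequencing, which counts unique molecular identifiers (UMIs), 1 per captured transcript. Although labelled dental mesenchyme, the tissue was dental pulp with its epithelium, and all cells share this strain, age and lack of treatment. The 2 deposited samples differ only in the sequencing lane and their cells are in 1 matrix, so the data are 1 sample, and neither the number nor the sex of the animals is stated. No difference below has a replicate check, and every interval is an exact 95% interval that covers counting error only.

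WNT ligands are lipid-modified proteins that act over short distances on Frizzled receptors and LRP co-receptors. In the canonical branch, receptor activation stops the destruction of β-catenin, which then enters the nucleus and switches on genes together with TCF/LEF factors. Several of those genes, such as Axin2 and Nkd1, encode inhibitors that feed back on the pathway. WNT signals between epithelium and mesenchyme guide tooth formation, and loss of WNT10A function is a well-known cause of missing teeth in people. The incisor of rodents grows throughout life, so it holds dividing cells beside enamel-forming ameloblasts and dentin-forming odontoblasts.

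Cells were grouped by clustering that left out all 10 genes and 73 other WNT pathway genes, so the groups were not defined by them. The marker genes gave 2204 mesenchymal cells (49.0%), 1398 immune cells (31.1%), 769 epithelial cells (17.1%), 74 endothelial cells and 57 erythroid cells. Median depth was 7005.5 UMIs in mesenchymal, 9304 in epithelial and 2863 in immune cells. Levels are given as CPM, the summed UMIs of a gene in a group scaled by all UMIs of that group to the usual common total. They rank cell groups for 1 gene and are not compared between genes. Clusters within a class are called by their leading gene, and by a cell type with the suffix -like where at least 3 listed markers of that type were raised. Expression of the enamel gene Amelx reached 159032 CPM in epithelial cells, which lowers the CPM of every other gene there. Ratios were therefore also computed with genes above 1% of either side left out of the totals, here called reduced totals.

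The level of free RNA matters because RNA from broken cells enters all droplets. Macrophage-like, monocyte-like and neutrophil-like cells (774 myeloid cells) served as cells that should lack the ligands. Their levels, called myeloid levels here, ranged from 0.275 CPM for Wnt10b to 5.50 CPM for Wnt6. Droplets of 1 to 20 UMIs, taken as free RNA, had higher levels, from 0.347 CPM for Wnt10b to 34.4 CPM for Wnt10a and 43.7 CPM for Wnt6. Markers of other classes were also read in each cluster. The 8 epithelial markers summed to between 17.5 and 79.7 CPM in mesenchymal clusters, and the 9 mesenchymal markers to between 92.9 and 222 CPM in epithelial clusters. In the mesenchymal clusters up to 4 of the 8 were at 0, and in the epithelial clusters up to 4 of the 9. Beside this, the collagen gene Col1a1 was at 8817 CPM in mesenchymal and 47.8 CPM in epithelial cells. The part of carried-over RNA in the results was not tested.

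The sequence in front of the start site is shown for Wnt6, a ligand of both tissues, and Axin2, the classical target gene, because these are the stretches in which a motif of the pathway was looked for. RefSeq promoter windows (GRCm38.p6, 250 bases before and 50 after each start) were found for 8 of the 10 genes, 11 windows in all. The TCF/LEF motif CTTTGAT, read on both strands, was in 0 of these 11 windows and in 3.73% of all 32851 windows. That says only that these letters are not in the windows. The GC box GGGCGG, a motif picked after the sequences had been seen and read on both strands, was in 7 of the 11 windows (5 of the 8 genes) and in 35.7% of all windows. The 250 bases before each start are printed 5′ to 3′ in lower case, with each GC box (GGGCGG, or CCGCCC on the other strand) in capitals. The Wnt6 stretch is chr1:74771642-74771891 on the plus strand, with 6 GC boxes and 79.6% G and C. The Axin2 stretch is chr11:108920099-108920348 on the plus strand, with 2 GC boxes and 69.2% G and C.
Wnt6: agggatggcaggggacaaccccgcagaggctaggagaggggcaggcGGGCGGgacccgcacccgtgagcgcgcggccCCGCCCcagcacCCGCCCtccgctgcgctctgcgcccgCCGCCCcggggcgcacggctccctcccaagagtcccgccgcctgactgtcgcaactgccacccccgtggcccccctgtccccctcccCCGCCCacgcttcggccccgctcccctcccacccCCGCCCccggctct
Axin2: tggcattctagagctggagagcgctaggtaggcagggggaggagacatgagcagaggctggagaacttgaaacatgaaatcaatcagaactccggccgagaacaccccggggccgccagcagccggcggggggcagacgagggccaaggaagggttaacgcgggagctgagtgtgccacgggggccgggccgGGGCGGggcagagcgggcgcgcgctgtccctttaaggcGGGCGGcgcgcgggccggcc

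Epithelial and mesenchymal cells differed in the transcripts of some ligands and shared those of others. Wnt4 was almost wholly epithelial, Wnt5a almost wholly mesenchymal, and Wnt6 and Wnt10a were present in both, whereas all 5 response genes were at higher CPM in mesenchyme. A gene was called higher or lower at a 2-fold difference with at least 30 UMIs over both sides, which 9 of the 10 passed. Of these 9 genes 2 were higher in epithelium, where 10.5% of 12920 measured genes were, and 6 were lower, where 20% were. Lef1, Lgr6 and Nkd2, with 17, 15 and 13 epithelial UMIs, passed the UMI minimum only through the mesenchymal side, so the count lower and the median give no support of their own. The median log2 ratio was -3.18, beside -0.29 for all measured genes. Reduced totals moved the all-gene median to 0.01 and the counts to 3 higher and 5 lower, with Wnt10a added to the first and Axin2 lost from the second. They also raised the share of higher among all calls from 34.5% to 48.0%.

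**Figure D1:**
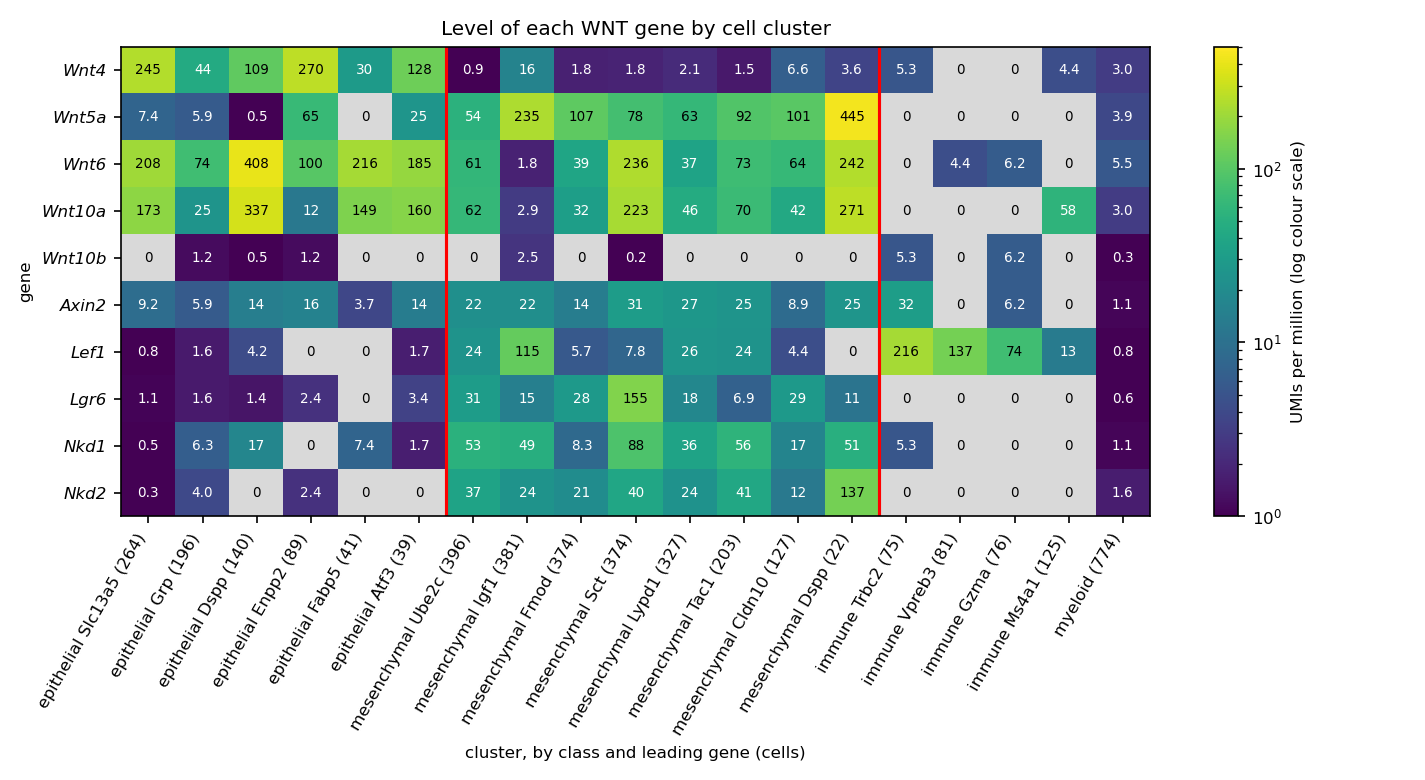
Level of each gene (rows) in each cluster (columns, number of cells in parentheses) in CPM on a log colour scale, with 0 in grey and red lines between epithelial, mesenchymal and immune clusters. Wnt4 is high on the left, Wnt5a in the middle, Wnt6 and Wnt10a in both, and Lef1 in the mesenchymal Igf1 cluster and in the lymphocytes on the right, where it reaches 216 CPM.

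Wnt4 (chromosome 4, 137277489 to 137299726, plus strand, GRCm38) encodes a ligand known for its roles in kidney and ovary formation. It had 1583 UMIs in epithelial cells (156 CPM, interval 148 to 164) and 73 in mesenchymal cells (4.06 CPM, 3.18 to 5.10). Its log2 ratio was 5.26 (4.93 to 5.62), or 38.4-fold, and epithelial cells held 94.6% of its UMIs while making up 17.1% of cells. The mesenchymal level was close to that of myeloid cells, 3.03 CPM (1.51 to 5.42).

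Within the epithelium, Wnt4 was highest in the Enpp2 cluster (270 CPM) and the ameloblast-like Slc13a5 cluster (245 CPM), which did not differ beyond counting error. The ameloblast-like Atf3 cluster (128 CPM) and the Dspp cluster (109 CPM) came next, and the Grp cluster (44.3 CPM) and Fabp5 cluster (29.7 CPM) were lowest. The Grp cluster is also led by cell-cycle genes, and the Atf3 cluster by immediate early genes. Genes above 1% took 47.4% of all UMIs in the Slc13a5 cluster and 9.66% in the Enpp2 cluster. With them left out, the Slc13a5 cluster was first at 465 CPM and the Enpp2 cluster second at 298 CPM, a difference beyond counting error. Wnt4 was detected in 213 of 264 cells of the Slc13a5 cluster (80.7%), with at most 20 UMIs in a cell. In the Enpp2 cluster, led also by Tnc and Alpl, 41 of 89 cells had it and the highest cell held 56 UMIs. Median depth was 11709 UMIs in the Slc13a5 and 5552 in the Enpp2 cluster. At 2000 UMIs per cell the shares were 33.6% (27.9 to 39.7) and 20.5% (12.2 to 31.2), with overlapping intervals, beside 0.489% of myeloid cells.

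One mesenchymal cluster stood above the myeloid level for Wnt4, although not above the 15.3 CPM (11.1 to 20.5) of droplets of 1 to 20 UMIs. The follicle-like Igf1 cluster had 44 of the 73 mesenchymal UMIs (16.1 CPM), in 21 of its 381 cells. Its log2 ratio to other mesenchymal cells was 3.08 (2.37 to 3.81), and 15.1% of 12059 measured genes were higher in this cluster. The other 7 mesenchymal clusters ranged from 0.940 to 6.64 CPM.

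Wnt5a (chromosome 14, 28504750 to 28527448, plus strand) encodes the ligand best known for signalling that does not need β-catenin, through ROR2. It had 1910 UMIs in mesenchymal cells (106 CPM, 101 to 111) and 113 in epithelial cells (11.1 CPM, 9.18 to 13.4), a log2 ratio of -3.25 (-3.54 to -2.98). The mesenchymal order ran from the odontoblast-like Dspp cluster (445 CPM) over the Igf1 cluster (235 CPM) to the Fmod (107), Cldn10 (101), Tac1 (92.4), Sct (77.9), Lypd1 (63.3) and Ube2c (54.3) clusters. The first place and the second each differed from the next beyond counting error, and the later neighbours did not. All 8 mesenchymal clusters lay well above the 3.85 CPM of myeloid cells. In the Dspp cluster 20 of 22 cells held a Wnt5a UMI.

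The epithelial Wnt5a transcripts were uneven. The Enpp2 cluster held 54 of the 113 UMIs (65.3 CPM), a log2 ratio of 3.37 (2.81 to 3.92) to the other epithelial cells. In that comparison 18.2% of 10565 measured genes were higher. The Atf3 cluster was at 25.3 CPM, the Slc13a5 and Grp clusters at 7.37 and 5.94 CPM, the Dspp cluster had 1 UMI and the Fabp5 cluster 0. So 1 epithelial cluster reached a Wnt5a level within the range of the mesenchymal clusters.

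Wnt6 (chromosome 1, 74771892 to 74785322, plus strand) and Wnt10a (chromosome 1, 74791516 to 74804179, plus strand) are canonical ligands whose genes lie next to each other in the same direction, with 6193 bases between them. Wnt6 was at 207 CPM (198 to 216) in epithelium and 92.9 CPM (88.5 to 97.4) in mesenchyme, a log2 ratio of 1.15 (1.06 to 1.25). Wnt10a was at 156 CPM (149 to 164) and 89.3 CPM (85.0 to 93.8), a log2 ratio of 0.81 (0.71 to 0.91), which is 1.10 with reduced totals. Both were low in immune cells, at 4.67 and 4.86 CPM.

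The pair shared its high and low clusters, as the plot of Wnt6 against Wnt10a shows. In mesenchyme the Dspp cluster had 242 CPM of Wnt6 and 271 CPM of Wnt10a, and the odontoblast-like Sct cluster had 236 and 223 CPM. These 2 clusters did not differ from each other beyond counting error for either gene, although with genes above 1% left out they did for Wnt10a (361 and 254 CPM). The Sct cluster differed from the next for both. The Tac1, Cldn10, Ube2c, Fmod and Lypd1 clusters lay between 37.0 and 72.6 CPM for Wnt6 and between 32.4 and 69.5 CPM for Wnt10a. Droplets of 1 to 20 UMIs were at 43.7 CPM (36.4 to 52.1) for Wnt6 and 34.4 CPM (27.9 to 41.8) for Wnt10a. Wnt6 in the Fmod (38.6 CPM) and Lypd1 (37.0 CPM) clusters and Wnt10a in the Fmod cluster (32.4 CPM) were therefore not above free RNA. The Igf1 cluster had 5 UMIs of Wnt6 (1.82 CPM) and 8 of Wnt10a (2.92 CPM), no more than the myeloid cells. Against other mesenchymal cells these were log2 ratios of -5.90 and -5.17, and 9.88% of measured genes were lower in this cluster. The cluster with the most mesenchymal Wnt4 UMIs and Lef1 UMIs was thus the lowest for Wnt6 and Wnt10a.

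In the epithelium the Dspp cluster was highest for both ligands, with 408 CPM of Wnt6 and 337 CPM of Wnt10a. Dspp is a dentin matrix gene, and this cluster carries epithelial markers. The Slc13a5, Atf3 and Fabp5 clusters followed at 208, 185 and 216 CPM for Wnt6 and at 173, 160 and 149 CPM for Wnt10a. The log2 ratios of the Dspp cluster to other epithelial cells were 1.41 for Wnt6 and 1.64 for Wnt10a, and 5.88% of measured genes were higher in it. With the genes above 1% left out of the totals of all clusters, the Dspp cluster was still first, at 511 CPM for Wnt6 and 422 CPM for Wnt10a. The Slc13a5 cluster then had 394 and 329 CPM and still differed from it beyond counting error. The Enpp2 cluster parted the pair: it had 100 CPM of Wnt6 (83 UMIs) and 12.1 CPM of Wnt10a (10 UMIs). Its log2 ratio to other epithelial cells was -1.11 (-1.44 to -0.79) for Wnt6 and -3.80 (-4.87 to -2.92) for Wnt10a, and 8.61% of measured genes were lower there. Across all 29 clusters Pearson's r of Wnt6 and Wnt10a on log2(CPM + 5) was 0.88, a description over clusters that share 1 library.

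**Figure D2:**
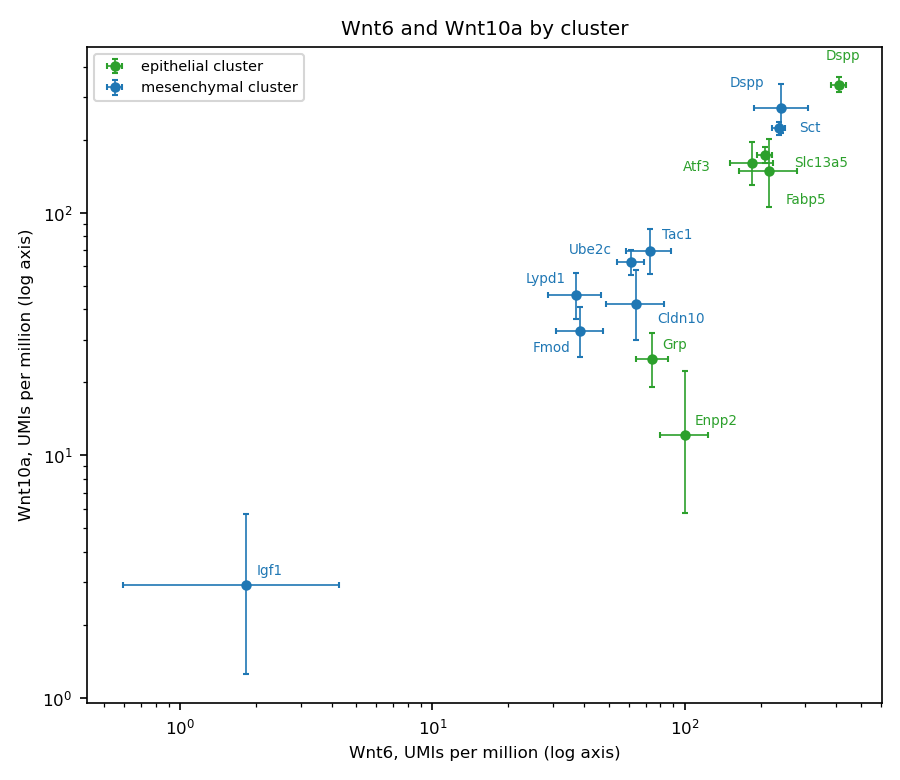
Wnt6 (x axis) against Wnt10a (y axis), both in CPM on log axes, for the 6 epithelial and 8 mesenchymal clusters, with exact 95% Poisson intervals as bars. The clusters run together from the Igf1 cluster at the bottom left to the epithelial Dspp cluster at 408 and 337 CPM, and the Enpp2 cluster lies below the others of similar Wnt6 level.

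Transcripts of both ligands also met in the same cells. With each cell thinned to 2000 UMIs, 72 of 238 mesenchymal cells with Wnt6 also had Wnt10a (30.3%, 24.5 to 36.5), against 11.5% of cells without Wnt6. In epithelium it was 87 of 211 (41.2%, 34.5 to 48.2) against 20.2%. Within single clusters the gap was smaller. In the Sct cluster 41.3% (32.6 to 50.4) of 126 cells with Wnt6 had Wnt10a and 37.4% of those without. In the epithelial Dspp cluster it was 60.6% (47.8 to 72.4) of 66 cells against 52.9%, and in the Slc13a5 cluster 42.7% (32.3 to 53.6) of 89 against 28.8%. In the first 2 of these clusters the share without Wnt6 lay inside the interval of the share with it.

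Wnt10b (chromosome 15, 98770712 to 98778150, minus strand), a canonical ligand best known from bone, was close to undetected. It had 16 UMIs in 16 cells, 1 each, of which 8 were mesenchymal, 5 epithelial and 3 immune. Of the 8 mesenchymal UMIs 7 were in the Igf1 cluster (2.55 CPM). Too few UMIs were present for any comparison of this gene between classes. At 2000 UMIs per cell it was in 0 of 711 epithelial cells, which allows a share of up to 0.422% of cells with a UMI.

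Lgr6 (chromosome 1, 134983301 to 135105276, minus strand) encodes a receptor for R-spondins, which strengthen WNT signals. It was at 54.7 CPM (51.3 to 58.2) in mesenchyme and 1.48 CPM (0.828 to 2.44) in epithelium, from 983 and 15 UMIs, a log2 ratio of -5.21. Of all its UMIs 67.4% were in the Sct cluster, at 155 CPM. The next clusters were Ube2c at 31.2, Cldn10 at 28.8 and Fmod at 28.5 CPM, and the lowest was Tac1 at 6.88 CPM. The epithelial level was near that of myeloid cells (0.550 CPM, 0.0666 to 1.99), with overlapping intervals. Of the mesenchymal cells with a Wnt10a UMI at 2000 UMIs, 16.8% (12.6 to 21.8) had Lgr6, against 6.56% of those without. Within the Sct cluster alone the shares were 27.5% (20.3 to 35.8) and 26.1%, so the pooled gap was not seen there.

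Lef1 (chromosome 3, 131110471 to 131224356, plus strand) encodes a DNA-binding partner of β-catenin that tooth formation requires. It was at 30.6 CPM (28.1 to 33.2) in mesenchyme and 1.68 CPM (0.976 to 2.68) in epithelium, a log2 ratio of -4.19. The mesenchymal level was set by the Igf1 cluster, with 316 of 550 UMIs (115 CPM, a log2 ratio of 2.91, 2.66 to 3.16, to the other mesenchymal cells). The Lypd1 (apical-mesenchyme-like), Tac1 and Ube2c clusters were at 25.7, 24.4 and 24.2 CPM and did not differ beyond counting error. The Sct, Fmod and Cldn10 clusters were at 7.81, 5.70 and 4.43 CPM. The Dspp cluster had 0 UMIs, which allows up to 10.8 CPM at 3 counts over the cluster, so it was below the Igf1 cluster and could not be told apart from the 3 lowest. The Lef1 and Wnt6 transcripts were rarely found together: of the 238 mesenchymal cells with Wnt6, 1.26% (0.261 to 3.64) had Lef1, against 6.07% of those without. Within the Sct cluster it was 0.794% (0.0201 to 4.34) against 3.48%, a share inside that interval.

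Axin2 (chromosome 11, 108920349 to 108950783, plus strand) encodes a scaffold of the β-catenin destruction complex and is the usual readout of canonical signalling. It was at 23.3 CPM (21.1 to 25.6) in mesenchyme and 10.1 CPM (8.20 to 12.2) in epithelium. The log2 ratio was -1.21, and -0.92 with reduced totals, which is inside 2-fold. Among mesenchymal clusters it ran from 31.0 CPM in the Sct cluster to 8.86 CPM in the Cldn10 cluster, and no neighbours in that order differed beyond counting error. Epithelial clusters ran from 15.7 CPM (Enpp2) to 3.72 CPM (Fabp5), again with no difference between neighbours. With genes above 1% left out, the Atf3 cluster came first (20.9 CPM), and the Enpp2 cluster (17.4 CPM) differed from the Grp cluster (6.48 CPM) beyond counting error. So the spread of Axin2 between clusters was narrow beside that of the other response genes. Still, against the other cells of its class, 1 mesenchymal and 1 epithelial cluster were called lower for Axin2 and 0 higher.

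Nkd1 (chromosome 8, 88521354 to 88594884, plus strand) and Nkd2 (chromosome 13, 73818534 to 73847631, minus strand) encode Dishevelled-binding inhibitors of the pathway. Nkd1 was at 51.7 CPM (48.4 to 55.1) in mesenchyme and 5.72 CPM (4.34 to 7.39) in epithelium, a log2 ratio of -3.18. Nkd2 was at 32.8 CPM (30.2 to 35.6) and 1.28 CPM (0.682 to 2.19), a log2 ratio of -4.68. In mesenchyme Nkd1 was highest in the Sct cluster (87.5 CPM), then between 36.5 and 56.5 CPM in the Tac1, Ube2c, Dspp, Igf1 and Lypd1 clusters, and lowest in the Cldn10 (16.6) and Fmod (8.33) clusters. Nkd2 was highest in the Dspp cluster (137 CPM, from 38 UMIs in 16 of 22 cells) and 41.3 CPM or lower elsewhere. The epithelial Nkd1 transcripts were mostly in the Dspp cluster, with 37 of 58 UMIs (17.4 CPM), a log2 ratio of 2.73 (1.92 to 3.58) to other epithelial cells. That is the cluster with the highest epithelial Wnt6 and Wnt10a.

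**Figure D3:**
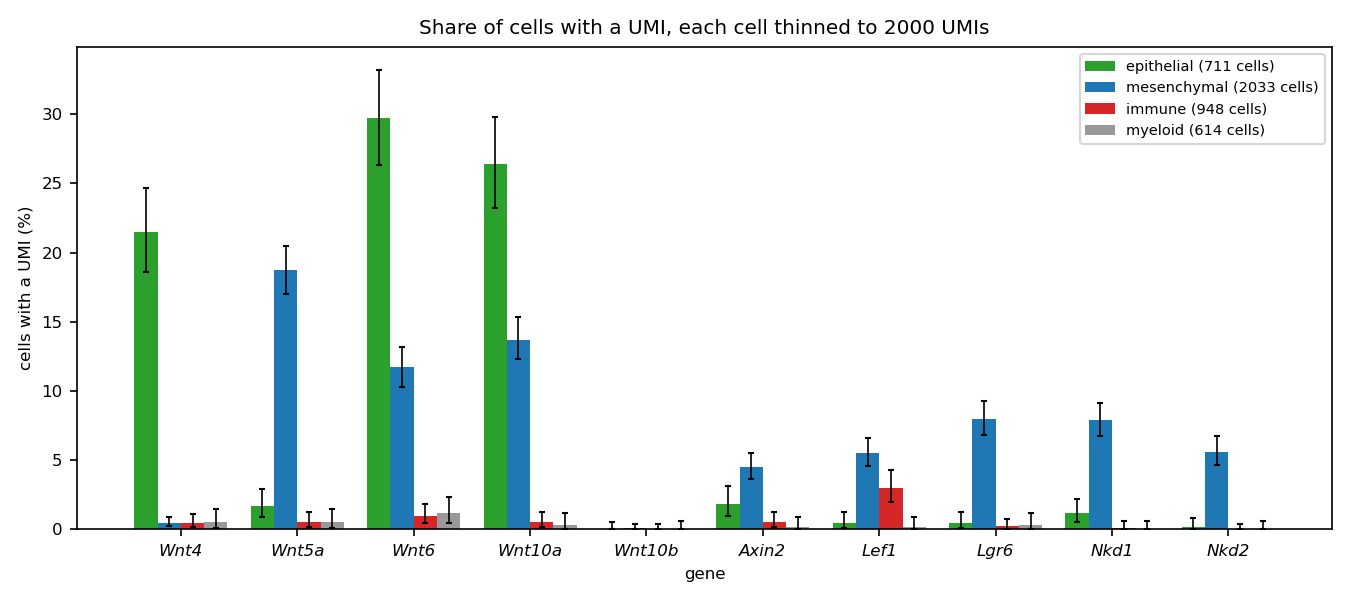
Share of cells with at least 1 UMI of each gene after each cell was thinned to 2000 UMIs, by class, with exact 95% Clopper-Pearson intervals as bars. Wnt4, Wnt6 and Wnt10a have their largest share in epithelial cells (21.5%, 29.7% and 26.4%), and Wnt5a and the 5 response genes in mesenchymal cells.

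For the 9 genes with enough UMIs, shares of cells at equal total depth gave the same sides as the levels, and Wnt10b was too scarce for either. The thinned UMIs include those of Amelx, which lowers the epithelial shares of other genes as it lowers their CPM. After thinning to 2000 UMIs, which left out 687 shallower cells of the 4502, 711 epithelial, 2033 mesenchymal, 948 immune and 614 myeloid cells remained. Wnt4 was in 21.5% of epithelial and 0.443% of mesenchymal cells, beside 0.489% of myeloid cells, so the mesenchymal share was no higher than that of the myeloid cells. Wnt5a was in 1.69% of epithelial and 18.7% of mesenchymal cells. Axin2 was in 1.83% and 4.48%, beside 0.163% of myeloid cells, although its ratio of levels was inside 2-fold with reduced totals. The epithelial shares of Lef1 and Lgr6, 0.422% each, had intervals that overlap those of myeloid cells (0.163% and 0.326%), and Nkd2 was in 0.141% of epithelial and 0 of 614 myeloid cells. Unthinned, the epithelial and mesenchymal shares were 50.8% and 2.09% for Wnt4 and 7.67% and 44.8% for Wnt5a, beside 1.29% and 1.68% of myeloid cells.

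Odontoblast-like cells had more Wnt6 and Wnt10a than the rest of the mesenchyme, and those of the Sct cluster, though not of the Dspp cluster, had more Lgr6. The 396 cells of the Sct and Dspp clusters were compared with the other mesenchymal cells. The Sct cluster has its name from 3 of 8 listed markers (Ifitm5, Col24a1 and Sct), the fewest allowed, and the Dspp cluster from 6. Of the 9 measured genes 4 were higher, beside 6.48% of 12059 measured genes, and 2 were lower, beside 17.9%. Wnt6 was at 236 against 43.1 CPM (log2 ratio 2.45, 2.31 to 2.60), Wnt10a at 225 against 42.1 CPM (2.42, 2.27 to 2.57) and Lgr6 at 146 against 22.9 CPM (2.67, 2.48 to 2.87). Of the 677 odontoblast-like Lgr6 UMIs 674 were in the Sct cluster (155 CPM), and the Dspp cluster was at 10.8 CPM. Nkd1 was at 85.3 against 40.1 CPM (1.09, 0.90 to 1.28), an interval that crosses the 2-fold line. Lef1 was lower, at 7.34 against 38.6 CPM (-2.40, -2.94 to -1.89).

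The lower Wnt4 call, 1.94 against 4.79 CPM, rests on 9 and 64 UMIs, of which 44 came from the Igf1 cluster, and the odontoblast-like level is below the myeloid level of 3.03 CPM. It was not a call with 1000 detected genes or with finer clusters. Wnt5a (99.8 against 108 CPM), Axin2 (30.7 against 20.7 CPM) and Nkd2 (45.6 against 28.4 CPM) lay within 2-fold. For Wnt5a, Nkd2 and Lgr6 the sum joins unlike clusters. The Dspp cluster of 22 cells was above all other mesenchymal clusters for Wnt5a and Nkd2, and near the lowest for Lgr6. Nkd1 was within 2-fold (log2 ratio 0.88) when at least 1000 genes were asked for, which left 199 odontoblast-like cells.

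A finer clustering of the mesenchyme divided the Sct cluster mainly into 3 groups, named after Plac8 (157 cells, 111 from the Sct cluster), Lgals3 (153 cells) and Dmp1 (108 cells). The Plac8 group did not meet the marker rule for odontoblast-like cells, which left 283 such cells at this resolution. Dmp1 encodes another dentin matrix protein. Set in order of their Dspp level, 3.57, 3.98 and 213 CPM, and followed by the Dspp cluster at 2256 CPM, the groups differed in the WNT genes as follows. The first 2 Dspp levels rest on 5 and 7 UMIs with overlapping intervals, so Dspp does not order the Plac8 and Lgals3 groups. Wnt6 was at 99.2 (83.4 to 117), 208 (187 to 230), 351 (322 to 382) and 242 CPM (188 to 308). Wnt10a was at 99.9, 209, 314 and 271 CPM, with the last 2 intervals overlapping. Both ligands were thus lowest in the Plac8 group and highest in the Dmp1 group by point value.

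Other genes took different courses over the same 4 groups. Lgr6 was at 105, 181, 144 and 10.8 CPM, so the Dspp cluster, with 3 UMIs, had little of the receptor. Lef1 was at 19.3, 5.69, 3.86 and 0 CPM. Wnt5a was at 43.5, 77.3, 98.4 and 445 CPM, and Nkd2 at 46.4, 43.8, 34.7 and 137 CPM. Nkd1, at 87.1, 93.2, 85.5 and 50.6 CPM, and Axin2, at 32.8, 32.4, 27.7 and 25.3 CPM, had overlapping intervals in all 4. The cycling gene Mki67 was at 23.6, 5.12, 0.643 and 3.62 CPM. These groups are clusters of 1 sample and not time points.

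The Igf1 cluster was divided likewise, mainly into a Bmp3 group (212 cells) and a Gpx3 group (147 cells). Lef1 was at 149 CPM (131 to 169) in the Bmp3 group and 65.0 CPM (50 to 83.0) in the Gpx3 group. Nkd1 was at 70.2 against 16.2 CPM, Nkd2 at 33.6 against 10.2 CPM, Axin2 at 29.4 against 9.14 CPM and Wnt4 at 23.4 against 5.08 CPM, and none of these pairs of intervals overlapped. Wnt5a, at 250 and 216 CPM, had overlapping intervals. Mki67 was at 93.6 and 1.02 CPM, so the group with more Lef1, Axin2, Nkd1 and Nkd2 also held more of the cycling transcript. Lgr6, at 16.2 and 9.14 CPM, had overlapping intervals. Wnt6 and Wnt10a were at 5.08 CPM or lower in both. For these 2 groups the clustering resolution was a tried alternative, but the pairing of them was chosen after the values had been seen.

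**Figure D4:**
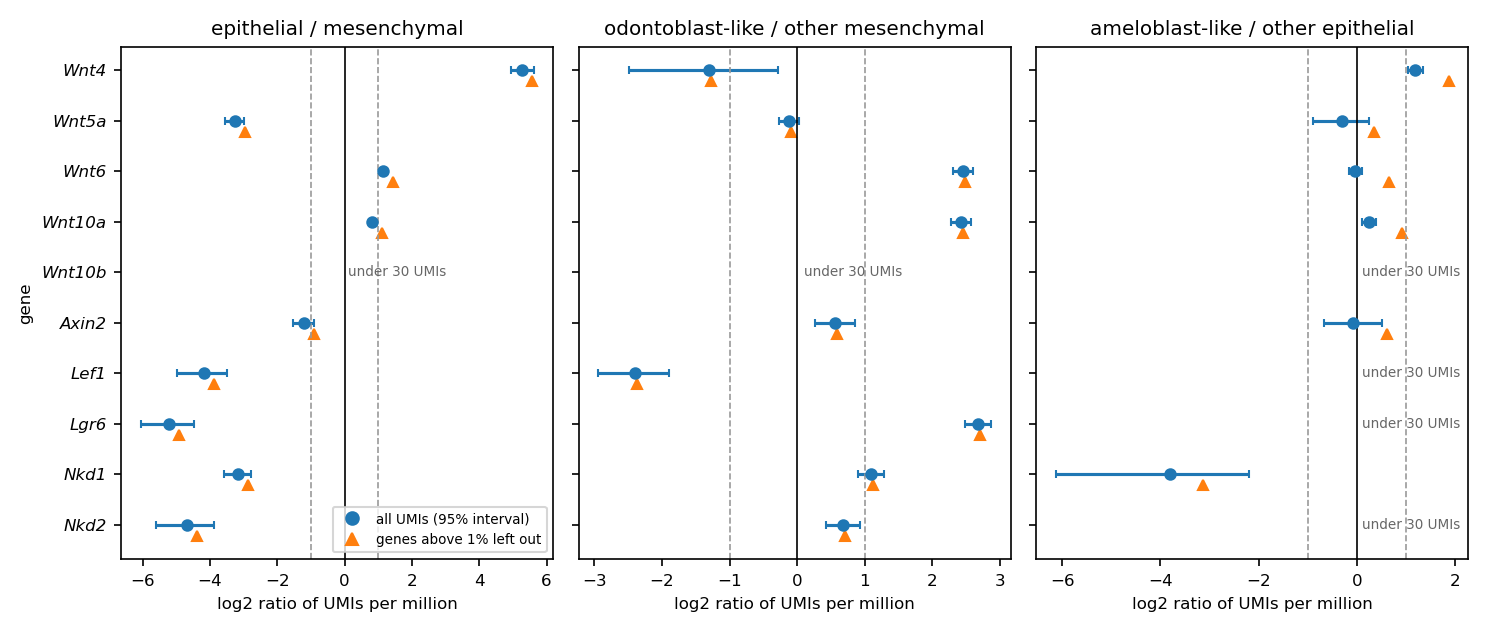
Log2 ratio of CPM for each gene in 3 comparisons (panels with their own x axes), with exact 95% intervals for totals of all UMIs (circles) and the value with genes above 1% left out of the totals (triangles). Dashed lines mark 2-fold. Odontoblast-like values barely move with the totals, and ameloblast-like values shift to the right, Wnt4 from 1.19 to 1.87.

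Summed over their clusters, the 303 ameloblast-like cells of the Slc13a5 and Atf3 clusters differed from other epithelial cells mainly in Wnt4 and Nkd1. Of 6 measured genes 1 was higher, beside 3.47% of 10565 measured genes, and 1 was lower, beside 38.3%. With reduced totals these counts stayed at 1 and 1, the all-gene median moved from -0.75 to -0.07, and the share of higher among all calls moved from 8.32% to 34.1%. Wnt4 was at 229 CPM in ameloblast-like and 100 CPM in other epithelial cells (log2 ratio 1.19, 1.04 to 1.34, and 1.87 with reduced totals). Both sums join unlike clusters. On the other side the Enpp2 cluster (270 CPM) did not differ from the Slc13a5 cluster (245 CPM) beyond counting error. Nor did the Atf3 cluster (128 CPM) differ from the Dspp cluster (109 CPM). With genes above 1% left out, the Enpp2 cluster (298 CPM) lay between the Slc13a5 (465 CPM) and Atf3 (198 CPM) clusters. Nkd1 had 3 UMIs against 55 (0.683 against 9.56 CPM, log2 ratio -3.81, -6.13 to -2.19), and passed the UMI minimum only through the side on which it was higher. Of those 55 UMIs 37 were in the Dspp cluster. The 9.56 CPM was no higher than the 10.1 CPM (6.74 to 14.5) of Nkd1 in droplets of 1 to 20 UMIs.

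Wnt6 was at 205 against 208 CPM, Wnt10a at 171 against 145, Wnt5a at 9.79 against 12.2 and Axin2 at 9.79 against 10.3, all within 2-fold. The other side joins unlike clusters, among them the Dspp cluster, in which Amelx was at 99060 CPM beside 228 CPM in the Grp cluster. Wnt6 was at 408, 216, 100 and 74.4 CPM in its Dspp, Fabp5, Enpp2 and Grp clusters, and Wnt10a at 337, 149, 12.1 and 24.9 CPM. The Slc13a5 cluster, at 208 and 173 CPM, lay between them, so the sums hide differences in both directions. With reduced totals the log2 ratios of Wnt6, Wnt5a and Axin2 changed sign, from -0.03 to 0.65, -0.31 to 0.36 and -0.07 to 0.61, still within 2-fold. Wnt10a moved from 0.25 to 0.92. Beside the all-gene median, all 4 lay above it under both totals. Lef1, Lgr6, Nkd2 and Wnt10b had under 30 epithelial UMIs each.

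In the immune cells Lef1 was a lymphocyte transcript. It had 92 immune UMIs, of which 41 were in the T-cell-like Trbc2 cluster (216 CPM, 155 to 293, 29 of 75 cells) and 31 in the B-cell-like Vpreb3 cluster (137 CPM, 93.4 to 195, 19 of 81 cells). The Vpreb3 cluster is led also by Rag1 and Ebf1, genes of developing B cells. The cytotoxic-lymphocyte-like Gzma cluster had 12 UMIs (73.8 CPM, 38.2 to 129, 11 of 76 cells), and the B-cell-like Ms4a1 cluster 3 (13.3 CPM). Against all other immune cells, the log2 ratios were 4.45 (3.82 to 5.07), 3.53 (2.86 to 4.18) and 2.26 (1.25 to 3.14) for the first 3. In these 3 comparisons 11.3%, 16.4% and 12.7% of 9145 measured genes were higher. The myeloid cells had 3 UMIs of Lef1 in all (0.825 CPM), so the lymphocyte levels were far above those of cells in the same suspension. LEF1 is known to act in early lymphocytes.

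Some other immune values stood above the myeloid level, all on few UMIs. The T-cell-like Hs3st1 cluster had 2 UMIs of Axin2 and 2 of Lef1 (23.7 CPM each). The dendritic-like Cox6a2 cluster had 1 UMI of Wnt10a (12.0 CPM). The Ms4a1 cluster had 13 UMIs of Wnt10a (57.6 CPM, 30.7 to 98.5) in 11 of 125 cells, with at most 2 in a cell, and the 26 UMIs on both sides were too few for a call. That interval includes the 34.4 CPM (27.9 to 41.8) of droplets of 1 to 20 UMIs. The same cells had 0 UMIs of Wnt6, and those droplets held 126 UMIs of Wnt6 and 99 of Wnt10a. The Trbc2 cluster had 6 UMIs of Axin2 in 6 cells (31.6 CPM, 11.6 to 68.8), beside 1.10 CPM in myeloid cells. Lgr6, Nkd1 and Nkd2 had between 2 and 6 UMIs over all immune cells, and the 74 endothelial cells had 11 UMIs of Lef1 (24.7 CPM, 12.3 to 44.2) and 5 of Axin2.

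Pathway members with like patterns are given as a description over the 29 clusters, which share 1 library and its free RNA, with Pearson's r on log2(CPM + 5). Among the 10 genes the highest values were 0.88 for Wnt6 with Wnt10a, 0.88 for Nkd1 with Nkd2 and 0.87 for Wnt5a with Nkd2. Lgr6 had 0.79 with Nkd1, and Lef1 had no value above 0.55. Of 10222 genes with at least 200 UMIs, the 3 most like Wnt4 were the epithelial polarity gene Crb3 (0.94), Serpinb5 and Prdm6. For Wnt6 they were Sp6 (0.94), a transcription factor of dental epithelium, Gm40193 and Pxylp1, and for Wnt10a they were Carmil1 (0.92), Gm40193 and Sema5a. Wnt5a was nearest to Tmem45a (0.93), Col1a2 and Mrc2, and Wnt10b, on 16 UMIs, to Ms4a4b, Gzma and Serpinb9. Lgr6 was nearest to Drp2 (0.95), Cacna2d3 and Dkk1, the last a secreted WNT antagonist. Axin2 was nearest to Armcx4 (0.92), Tcf7 and Tox, but over the immune clusters its values rest on 14 UMIs, 6 of them in the Trbc2 cluster. Nkd1 was nearest to Adamts2 (0.91), Dixdc1 and Nkd2, Nkd2 to Pcsk5 (0.94), Tmem45a and Rcor2, and Lef1 to Ppp3cc (0.77) and Fbxw2.

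The 73 other pathway genes place the 10 in their setting. Between epithelium and mesenchyme 57 were measured, of which 10 were higher in epithelium and 22 lower, beside 10.5% and 20% of all measured genes, with a median log2 ratio of -0.29, the same as that of all genes. Among 14 other ligands 5 were measured. Wnt3a (34.5 against 0.278 CPM) and Wnt7a (28.0 against 0.278 CPM) were epithelial, and Wnt11 (1.68 against 24.8 CPM) and Wnt5b (2.46 against 14.6 CPM) were mesenchymal. Both secretion genes, Wls and Porcn, and all 8 genes of intracellular transduction lay within 2-fold. Of all measured genes 30.6% were called in either direction, so most genes lay within 2-fold and these counts set neither role apart.

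Of 13 measured receptors 4 were higher and 5 lower. Fzd6 (48.7 against 6.00 CPM) and Fzd5 (39.9 against 7.73 CPM) were the largest on the epithelial side. Fzd10, with 0 epithelial and 149 mesenchymal UMIs, was at least 4.81 lower on the log2 scale. Fzd2, Lrp5 and Ror2 came within 2-fold with reduced totals, as did Tcf7l1 and Dkk3, which leaves 17 lower genes. The R-spondins were mesenchymal: Rspo4 was at 67.7 against 0.887 CPM, Rspo2 at 29.5 against 0.493 CPM and Rspo1 at 31.1 against 0.887 CPM. Rnf43, a ubiquitin ligase that removes WNT receptors, was epithelial (12.6 against 1.83 CPM). Tcf7, a relative of Lef1, was at 106 CPM in mesenchyme and 19.1 CPM in epithelium.

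Secreted antagonists were mostly on the mesenchymal side, with 9 of 13 measured genes lower in epithelium and 1 higher. Of all 12920 measured genes, 2589 were lower and 1362 higher. Among the lower antagonists, Dkk3 came within 2-fold with reduced totals (log2 ratio -1.16 to -0.87). Dkk2, Notum and Frzb passed the UMI minimum only through the mesenchymal side, so the count lower gives no support of its own. Dkk2 was at 37.1 against 0.296 CPM, Notum, an enzyme that removes the lipid of WNT proteins, at 302 against 2.56 CPM, and Frzb at 89.4 against 0.789 CPM. Sfrp5 was the exception, at 48.5 CPM in epithelium and 0.167 CPM in mesenchyme (3 UMIs). Among other targets, Tnfrsf19 (54.8 against 25.4 CPM) and Myc (22 against 9.17 CPM) were higher in epithelium, unlike the 5 response genes above.

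**Figure D5:**
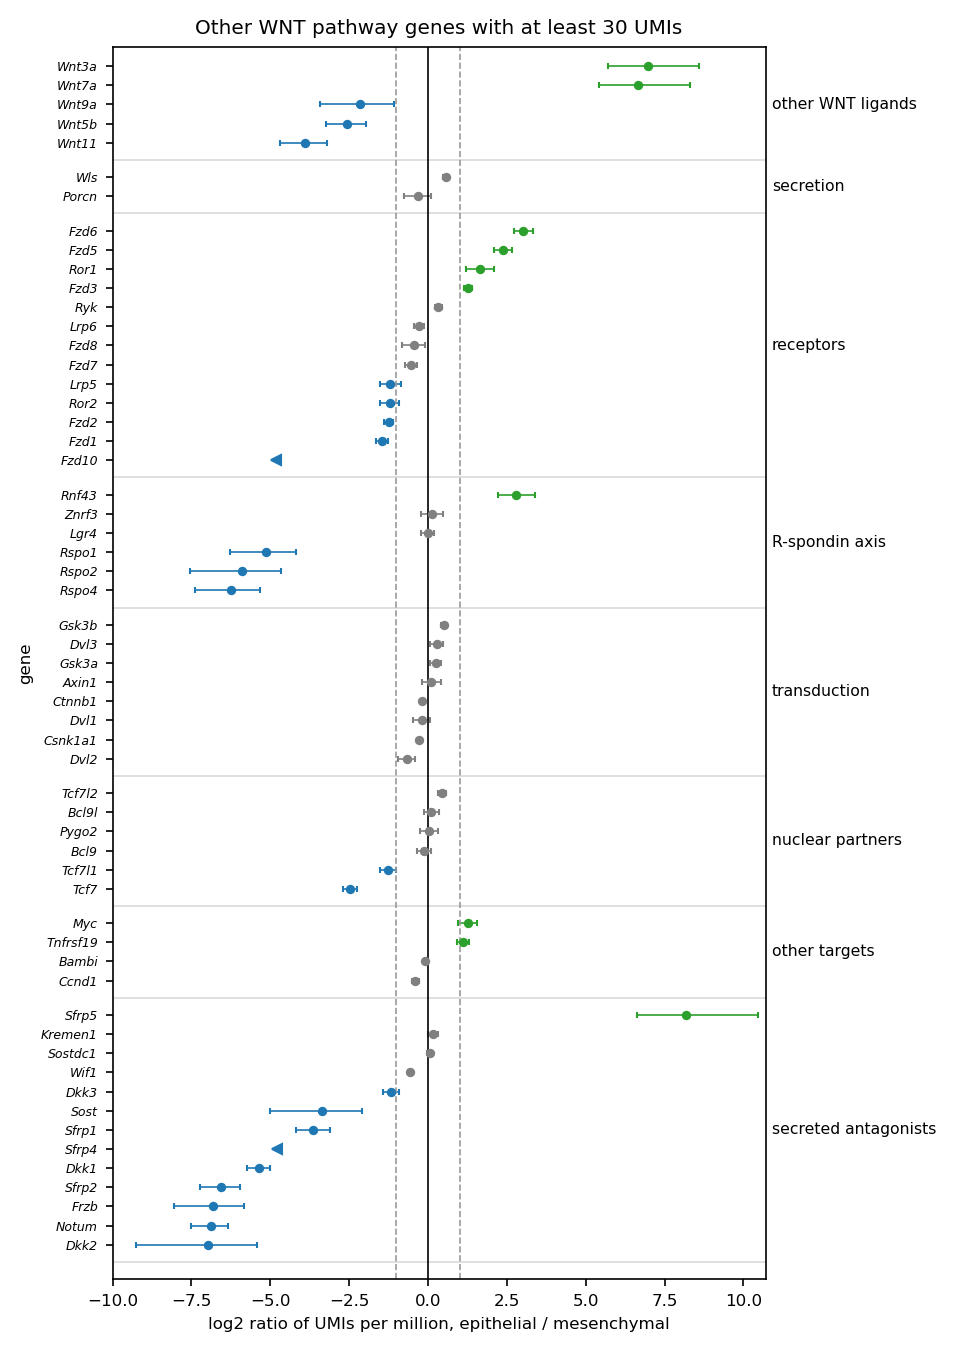
Log2 ratio of CPM, epithelial over mesenchymal cells, for the 57 other WNT pathway genes with at least 30 UMIs, by role, with exact 95% intervals. Green marks genes higher and blue genes lower at 2-fold (dashed lines), and triangles are bounds for genes with 0 epithelial UMIs. R-spondins and most secreted antagonists lie on the left, and all 8 transduction genes lie between the dashed lines.

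In odontoblast-like cells 54 of the 73 were measured, of which 5 were higher and 21 lower, beside 6.48% and 17.9% of all measured genes. Higher were the antagonists Notum (964 against 72.9 CPM), Dkk1 (887 against 57.2 CPM) and Sost (91 UMIs against 0, at least 6.45 on the log2 scale). So were the target Bambi (1649 against 675 CPM) and Znrf3 (16.0 against 7.71 CPM), a ubiquitin ligase that removes WNT receptors. Lower were Rspo1 (1.30 against 41.4 CPM), Rspo2 (3.67 against 38.4 CPM) and Rspo4 (19.0 against 84.6 CPM), the ligands of the Lgr6 receptor family. Dkk2 (0.216 against 49.9 CPM) and Sfrp2 (11.2 against 284 CPM) were lower too, as were Fzd1 (14 against 89.6 CPM) and Wls (57.7 against 120 CPM), which ferries WNT proteins to the cell surface. The antagonists thus parted into 3 higher and 7 lower of 12 measured.

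In ameloblast-like cells 44 were measured, of which 2 were higher and 20 lower, beside 3.47% and 38.3% of all measured genes. With reduced totals 6 were higher and 12 lower. Wif1 (575 against 175 CPM) and Wnt7a (44.1 against 15.7 CPM) were higher under both totals. Lower under both were Tnfrsf19 (0.228 against 96.5 CPM), Ccnd1 (4.10 against 172 CPM), Sostdc1 (2.05 against 275 CPM), Sfrp5 (0.683 against 85.0 CPM) and Fzd1 (1.82 against 43.6 CPM). Wnt3a, at 47.6 against 24.5 CPM, was within 2-fold and became higher with reduced totals. Alongside Wnt4, Wnt7a was thus the other ligand called higher in ameloblast-like cells under both totals.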

How the data were processed

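Gene counts per droplet barcode were deposited by the authors as 1 unfiltered matrix of whole-number UMI counts (68931830 UMIs, 6794880 barcodes), made per the file headers with software version 3.0.2. Per the submitters' processing notes the build was mm10 and R 3.4.1 and Seurat were used, and the aligner is not given in the sources used here. Both samples were treated as 1, and no sample column was left unused (0).

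Barcodes with at least 500 genes and at most 20% mitochondrial UMIs were kept (4775). Doublets were called with Scrublet in scanpy 1.11.5. Barcodes scoring above 0.15 were removed (122), since the threshold set by the tool marked only 1. A further 151 barcodes outside erythroid clusters had over 5% haemoglobin UMIs and were removed. The 4502 cells hold 49.8% of all UMIs, with a median of 5779.5 per cell. Leiden clustering (leidenalg 0.10.2, 2000 variable genes, 30 components, 15 neighbours, resolution 1.0, and 0.5 within classes) left out the 83 WNT genes. Marker lists named clusters.

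CPM came from summed counts with Poisson intervals, log2 ratios with exact conditional binomial intervals and shares with Clopper-Pearson intervals (95%). A count of 0 used a floor of 3 counts over the group. No significance test was made. The code for ratios and intervals was checked on simulated counts. The members and lists were chosen with earlier results of these data known. Pathway genes are named by the largest log2 ratios per role, up to 4 each, and for each of the 10 genes the 3 most like by Pearson's r, from genes with at least 200 UMIs, of which 1 is not reported here. Genes named beyond that were chosen after their values were seen. Coordinates are from GENCODE M21 (GRCm38).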

Additional observations from a re-analysis of the deposited data

How the results depend on the processing

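Over 194 recomputed calls of single members, 185 kept their call or lack of one, 6 lost a call and 3 gained one. Of those with a call 0 reversed. Some settings changed only the UMI minimum or the fold, so their ratios could not move. Clustering at resolution 2.0 again gave 769 epithelial and 2204 mesenchymal cells. Sign changes within 2-fold, such as those of Wnt6, Wnt5a and Axin2 in ameloblast-like cells, count as kept. In the comparison of epithelial with mesenchymal cells, the members called higher went from 2 to 1 at a fold of 3 and those lower from 6 to 5, beside all genes higher from 1362 to 941 and lower from 2589 to 1575. The members lower in odontoblast-like cells went from 2 to 1 with 1000 detected genes and to 1 with mesenchymal resolution 1.0. The members lower in ameloblast-like cells went from 1 to 3 with at least 10 UMIs, where Lef1 and Nkd2 were added. Keeping called doublets left 100 ameloblast-like cells and moved the all-gene median there from -0.75 to -0.47, and 1000 detected genes left 199 odontoblast-like cells. The totals over clusters, and the recount of the 73 other genes, are alternatives added after seeing the data. Leaving out genes above 1% of any cluster moved 21 of 140 cluster levels outside their counting interval. With reduced totals all genes higher in ameloblast-like cells went from 367 to 1016 and those lower from 4043 to 1966. The other genes lower in ameloblast-like cells went from 20 to 12 and the higher ones from 2 to 6. No paired analysis was possible because the data are 1 sample, and for the same reason no replicate could be left out. Depth limits Wnt10b in all classes, and Lef1, Lgr6 and Nkd2 in epithelium.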
